A study of Mus musculus with 32 samples.

Results

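Loss of all Prdm16 was examined in haematopoietic stem cells (HSCs) sorted from mouse fetal liver. The comparison used 6 of the 32 RNA-seq libraries of the study, taken by their labels: 3 libraries with the genotype PRDM16-KO (KO) and 3 labelled wild type (WT). Cells of both genotypes were sorted as Lin-cKit+Sca1+CD48-, a gate that keeps cells without lineage markers that carry the receptor Kit and the surface protein Sca1 (encoded by Ly6a) and that removes CD48-positive progenitors. They were neither cultured nor treated, and RNA of both was amplified from low input before library preparation. The library names begin with VAV, the name of a blood-wide gene whose promoter is widely used to drive Cre in blood cells. Which exons the allele loses, the embryos' age and whether embryos were pooled were not given in the labels.

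Prdm16 encodes a zinc-finger transcription factor of the PRDM family and is known to be needed for the maintenance of HSCs in mouse fetal liver and marrow. It is made as a full-length protein with a PR domain and as a short form without it. Fetal liver HSCs expand while they supply all blood lineages. Neutrophil precursors are known to make their granule proteins in an order that runs through primary, secondary and tertiary granules as they mature.

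The deposited table held 22803 gene rows, of which 15590 had enough counts to be tested, and totals ran between 30480665 and 32775503 counts in KO libraries and between 26715538 and 33246080 in WT libraries. Levels below are CPM, counts divided by library size with TMM scaling, so they compare libraries for 1 gene and not genes with each other. Transcripts expected of the sorted cells were present in every library. Kit had 383.5, 329.4 and 173.2 CPM in KO libraries and 408.2, 327.4 and 180.9 CPM in WT libraries, and Slamf1, which encodes the HSC marker CD150, had 5.41, 8.25 and 6.31 CPM in KO libraries and 4.92, 5.34 and 14.6 CPM in WT libraries.

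The libraries numbered 3 stood apart from the others in both genotypes. The primary granule list summed to 1204.4, 1519.8 and 10986.3 CPM in KO libraries 1, 2 and 3, and to 760.8, 844.9 and 2123.6 CPM in WT libraries 1, 2 and 3. The 5 hepatocyte markers Alb, Afp, Apoa1, Ttr and Hnf4a together had 193.5, 63.2 and 21.4 CPM in KO libraries and 172.1, 111.7 and 17.9 CPM in WT libraries. Alb itself had 1227, 437 and 3 counts in KO libraries and 1068, 621 and 2 counts in WT libraries. Interferon response genes summed to 676.1, 699.2 and 1761.8 CPM in KO libraries and to 729.5, 723.7 and 2034.2 CPM in WT libraries. Number 3 was thus the highest for granule and interferon genes and the lowest for hepatocyte markers in each genotype. In a principal component analysis of log2 CPM, the component with 50.6% of the variance placed KO library 3 at 69.7 and WT library 3 at 46.7, and the other 4 libraries between -40.3 and -14.6.

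**Figure D1:**
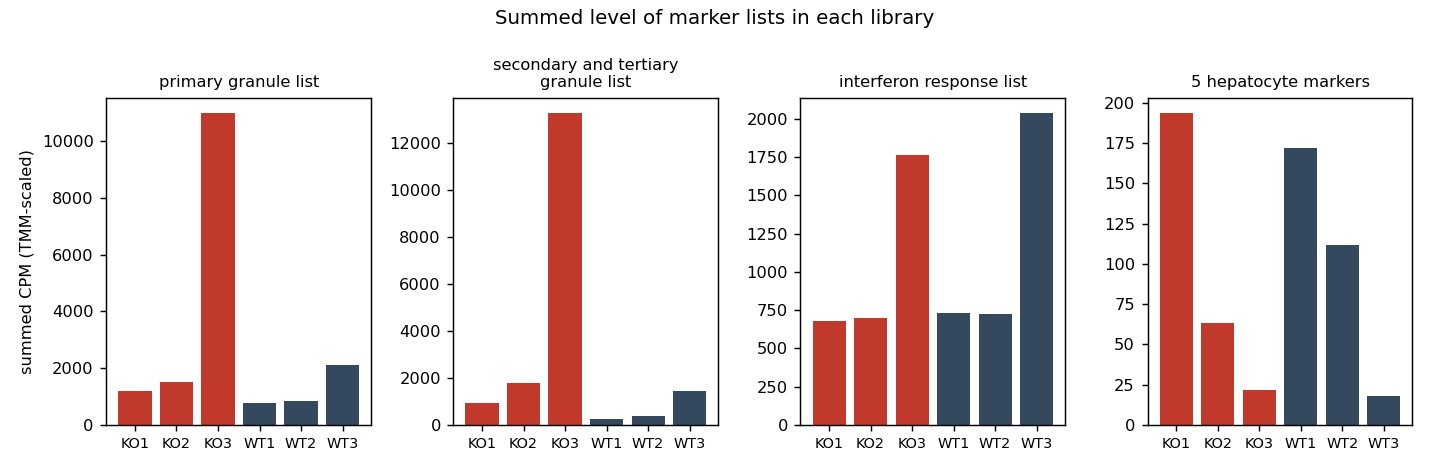
Summed TMM-scaled CPM (vertical axes) of the primary granule list, the secondary and tertiary granule list, the interferon response list and the 5 hepatocyte markers in each of the 3 KO (red) and 3 WT (dark blue) libraries. Each bar is 1 library; the granule sums are highest in KO library 3, and the hepatocyte markers are lowest in the libraries numbered 3.

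KO and WT libraries numbered 3 also varied together, with deviations from the group means correlated at 0.626. Each gene was therefore tested with and without the library number as a block. Numbers 1 and 2 were not told apart in this way. KO library 1 correlated at 0.415 and 0.338 with WT libraries 1 and 2, and KO library 2 at 0.319 and 0.202. A block compares each KO library with the WT library of its own number. Without the block, edgeR's quasi-likelihood test called 0 rows at an adjusted p under 0.05. In that fit 739 rows had an unadjusted p under 0.05, and DESeq2 called 71 without the block and 542 with it (3.48%), 256 of them lower in KO (1.64%). With the block, edgeR called 176 rows (1.13% of those tested), 82 higher (0.526%) and 94 lower (0.603%) in KO. The common biological coefficient of variation was 0.287 without the block and 0.153 with it. All log2 fold changes below are KO over WT from the blocked fit, with their standard error (SE). A row is said to have risen or fallen where it passed in that fit, and none passed without the block. Leaving out 1 number at a time, the blocked fit called 138 rows without number 1, 51 without number 2 and 320 without number 3 (2.04%, with 0.924% higher and 1.11% lower), of which 91, 40 and 160 were among the 176. By direction, 95, 42 and 145 of the calls were higher in KO and 43, 9 and 175 were lower. Of the 49 genes named by rule that passed, 31, 15 and 45 passed in these fits, and all kept their direction. The fit without a block called 40 rows when the libraries numbered 3 were left out.

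The rows that rose moved far more than those that fell. The median log2 fold change was 2.37 among the 82 rows that rose and -0.65 among the 94 that fell, and changes of over 2-fold were seen in 68 and 11 rows of these sets. All 176 moved in the same direction in each of the 3 pairs, as did 38.6% of all rows tested. The blocked test favours rows whose pairs agree, so the selection itself leads to such agreement. In 76 of the 176, CPM did not overlap between the genotypes, against 10.8% of all rows, 5.2% higher and 5.61% lower in KO.

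**Figure D2:**
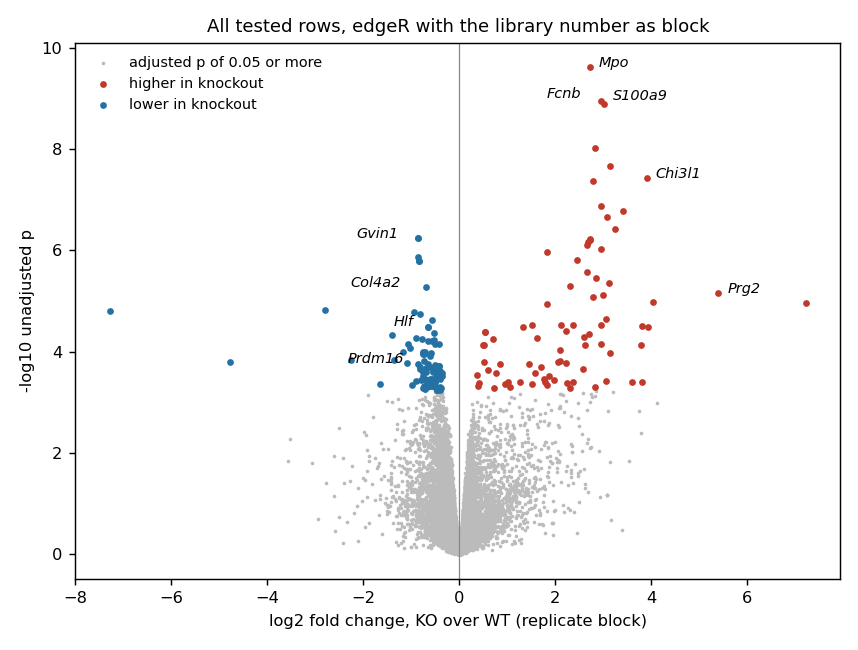
Log2 fold change, KO over WT, in the fit with the library number as block (horizontal axis) against -log10 of the unadjusted p (vertical axis) for the 15590 rows tested. The 82 rows that rose (red) reach further from 0 than most of the 94 that fell (blue); grey points had an adjusted p of 0.05 or more.

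Prdm16, the targeted gene, was counted in every KO library. It had 24.7, 23.8 and 11.3 CPM in KO libraries against 37.6, 39.7 and 24.9 CPM in WT libraries. All KO values lay below all WT values, with KO libraries 1 and 2 close to WT library 3. Prdm16 fell by 0.82 ± 0.13 on the log2 scale (SE, adjusted p = 0.0302 in edgeR with the block). It passed without number 3 (-0.67, adjusted p = 0.0119) but not without number 1 (-0.94, adjusted p = 0.053) or number 2 (-0.87, adjusted p = 0.227). The value without the block was -0.77 (unadjusted p = 0.049, adjusted p = 1.00). Since the deleted exons are not named and the counts are per gene, the remaining counts do not show how much full transcript was left. Of the 9 PRDM family genes tested, Prdm16 was the 1 that passed. The family's median was -0.16.

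Of the 37 gene lists, those of neutrophil granules held the most genes that rose. Of the 35 granule list members tested, 17 rose and 0 fell: 5 of 14 in the primary list and 12 of 21 in the secondary and tertiary list. The 5 were Mpo, Ctsg, Ms4a3, Hp and Nkg7. The list names are labels, and not every member encodes a protein of the named granules. The median log2 fold change was 1.77 over the primary and 2.67 over the secondary and tertiary members, and all 35 were higher in KO; the median over all rows was -0.00174. By pair, the primary median was 1.21, 1.53 and 2.56 for numbers 1, 2 and 3, and the secondary and tertiary median was 2.12, 2.53 and 3.09. These genes are markers of granulocytes and their precursors, and in RNA from pooled cells more such cells in a sort and more such RNA per cell cannot be told apart.

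Mpo, which encodes the myeloperoxidase of primary granules, had 179.0, 292.2 and 4796.5 CPM in KO libraries against 29.9, 45.0 and 655.1 CPM in WT libraries. WT library 3 lay above KO libraries 1 and 2, so the genotypes overlapped, while within each number KO was the higher. Mpo rose by 2.72 ± 0.07 (SE) on the log2 scale (adjusted p = 3.77e-06), the smallest p of all rows. S100a9, which with S100a8 forms the calcium-binding protein calprotectin, had 131.1, 307.4 and 1943.2 CPM in KO libraries against 15.8, 43.9 and 210.9 CPM in WT libraries. S100a9 rose by 3.02 ± 0.09 and S100a8 by 2.96 ± 0.11. Overlap again came from WT library 3 alone.

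Ngp, the neutrophilic granule protein gene, had 117.6, 243.3 and 1218.2 CPM in KO libraries against 16.4, 23.1 and 111.5 CPM in WT libraries. Here every KO library exceeded every WT library, and the rise was 3.25 ± 0.13. Fcnb, which encodes the lectin ficolin B, had 18.4, 29.2 and 272.7 CPM in KO libraries against 2.63, 3.83 and 33.3 CPM in WT libraries, and it rose by 2.95 ± 0.09. Camp, the cathelicidin gene, had 24.0, 51.5 and 534.7 CPM in KO libraries against 4.92, 4.98 and 62.4 CPM in WT libraries, and it rose by 2.96 ± 0.22. For both, WT library 3 was above KO libraries 1 and 2.

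**Figure D3:**
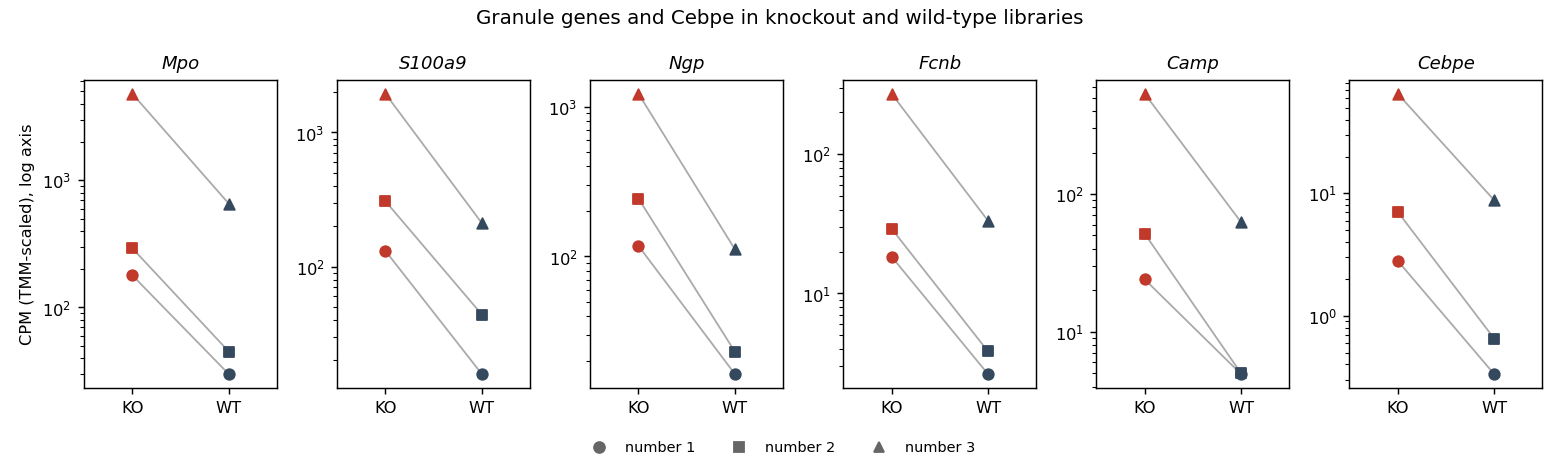
TMM-scaled CPM on a log axis (vertical) of Mpo, S100a9, Ngp, Fcnb, Camp and Cebpe in KO (red) and WT (dark blue) libraries, with grey lines joining libraries of the same number. Every line descends from KO to WT, and the libraries numbered 3 (triangles) lie highest in both genotypes.

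The other members of the granule lists that rose did so by 1.62 to 3.93. Chi3l1, a chitinase-like gene, rose by 3.91 ± 0.19 and its 42.6 CPM in KO library 3 faced 2.99 CPM in WT library 3. Ctsg (cathepsin G) rose by 3.14 ± 0.26, Ms4a3, a gene of granulocyte-monocyte progenitors, by 2.72 ± 0.17, and Hp (haptoglobin) by 2.67 ± 0.17. Mmp9 (gelatinase B), Cd177, Olfm4 and Retnlg rose by 2.22 to 2.84. Chi3l3 rose by 3.93 ± 0.23 and Stfa2 by 2.84 ± 0.11, as did their relatives outside the list, Chi3l4 (4.04 ± 0.26) and Stfa2l1 (3.15 ± 0.14). These have near-identical copies, so how reads were divided among them is uncertain. Elane, the neutrophil elastase gene, did not pass, with 24.3, 46.9 and 1633.3 CPM in KO libraries against 0.444, 2.64 and 246.1 CPM in WT libraries and a log2 fold change of 3.53 ± 0.60 (adjusted p = 0.213). Its pairs differed in size, with log2 ratios of 4.72, 3.92 and 2.73 for numbers 1, 2 and 3. Ltf (lactoferrin) at 2.65 ± 0.41 and Lyz2 (lysozyme) at 1.86 ± 0.31 did not pass either, although every KO library exceeded every WT library. Without the libraries numbered 3, 10 primary and 18 secondary and tertiary members passed, Elane, Ltf and Lyz2 among them, all higher in KO. The counts were 7 and 11 without number 1, and 3 and 9 without number 2.

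Promoter windows are shown for the 4 granule genes with the smallest p among those that rose and are listed in RefSeq's promoter table (GRCm38.p6), since they moved together. Each window runs 5′ to 3′ over 250 bases before the gene's start and 50 after it, and capitals mark matches to TTGCNNAA, a core of C/EBP sites, or GAGGAAGT, a core of PU.1 sites, on either strand.
Mpo, chr11:87793534-87793833, plus strand: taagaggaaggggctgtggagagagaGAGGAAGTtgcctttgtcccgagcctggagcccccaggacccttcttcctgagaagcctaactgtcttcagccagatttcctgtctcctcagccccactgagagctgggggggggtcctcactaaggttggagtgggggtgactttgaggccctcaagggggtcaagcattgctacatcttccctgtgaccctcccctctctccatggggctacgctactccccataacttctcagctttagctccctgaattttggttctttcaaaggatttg
Fcnb, chr2:28084829-28085128, minus strand: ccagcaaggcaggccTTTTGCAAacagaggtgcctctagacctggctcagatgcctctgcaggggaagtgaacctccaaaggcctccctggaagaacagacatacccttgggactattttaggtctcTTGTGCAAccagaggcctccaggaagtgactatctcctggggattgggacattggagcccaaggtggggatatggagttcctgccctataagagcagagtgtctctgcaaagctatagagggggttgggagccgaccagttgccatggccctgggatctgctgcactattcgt
S100a9, chr3:90695672-90695971, minus strand: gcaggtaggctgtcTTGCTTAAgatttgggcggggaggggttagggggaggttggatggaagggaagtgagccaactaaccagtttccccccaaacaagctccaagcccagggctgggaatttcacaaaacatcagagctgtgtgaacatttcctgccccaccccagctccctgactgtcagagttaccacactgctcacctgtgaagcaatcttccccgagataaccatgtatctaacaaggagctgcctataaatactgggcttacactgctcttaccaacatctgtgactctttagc
Stfa2, chr16:36408314-36408613, minus strand: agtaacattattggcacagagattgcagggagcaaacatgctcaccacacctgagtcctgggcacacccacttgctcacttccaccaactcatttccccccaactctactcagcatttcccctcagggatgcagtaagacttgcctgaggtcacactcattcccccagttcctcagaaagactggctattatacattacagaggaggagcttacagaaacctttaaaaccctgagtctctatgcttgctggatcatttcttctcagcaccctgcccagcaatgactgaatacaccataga

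Mpo had a match to GAGGAAGT, Fcnb and S100a9 had matches to TTGCNNAA, and Stfa2 had neither. Of the 17 granule genes that rose, 13 were in the table. The C/EBP letters stood in 5 of those 13 windows (38.5%), against 8.61% of the 11175 tested genes with a window and 10.8% of all 27025 windows. The PU.1 letters stood in 3 of 13 (23.1%), against 3.36% of the tested genes and 3.28% of all windows. Such a match describes letters and shows no binding.

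Among myeloid transcription factors and receptors, 2 of the 11 members tested rose and 0 fell. Cebpe, which drives the late steps of granulocyte maturation, had 2.81, 7.07 and 65.3 CPM in KO libraries against 0.333, 0.650 and 8.80 CPM in WT libraries, and it rose by 3.08 ± 0.19 (adjusted p = 0.000341). WT library 3 again exceeded both KO libraries 1 and 2. Csf1r, the receptor for the macrophage growth factor CSF1, behaved otherwise. It had 17.7, 18.2 and 18.3 CPM in KO libraries against 9.14, 11.2 and 6.89 CPM in WT libraries, without overlap and with number 3 not apart in KO, and it rose by 1.02 ± 0.17. Csf1r did not pass without number 1 (adjusted p = 0.129) or number 2 (adjusted p = 0.17). Cebpa, the factor that starts the granulocyte programme, did not pass (0.73 ± 0.42), nor did Cebpb (0.40 ± 0.09) or Irf8 (-0.56 ± 0.15).

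Of 20 monocyte and macrophage genes tested, 3 rose and 0 fell, with a median of 1.05. Besides Csf1r these were Ly6c2, a surface marker of monocytes, at 3.41 ± 0.18, and Slc40a1, the iron exporter ferroportin, at 2.61 ± 0.29. The complement gene C1qa, a macrophage marker, had 19, 64 and 3 counts in KO libraries and 0 in each WT library, too few to be tested. Other myeloid genes outside the lists rose as well. Cybb, a subunit of the phagocyte oxidase, had 12.4, 15.4 and 82.9 CPM in KO libraries against 1.92, 3.32 and 8.12 CPM in WT libraries (2.79 ± 0.23), with no overlap. Slpi, a protease inhibitor, rose by 2.99 ± 0.28, and Prg2, the eosinophil major basic protein gene, by 5.39 ± 0.40, with 1.38, 15.5 and 70.1 CPM in KO libraries against 0.111, 0.108 and 1.99 CPM in WT libraries. The chemotactic receptors Cxcr2 (1.78 ± 0.30) and Ccr1 (2.06 ± 0.30) and the leukotriene receptor Ltb4r1 (2.46 ± 0.19) rose too.

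Other genes rose without the libraries numbered 3 standing apart. Rgs1, a brake on G-protein signalling, had 27.9, 20.7 and 19.6 CPM in KO libraries against 7.88, 5.96 and 5.31 CPM in WT libraries, without overlap, and rose by 1.83 ± 0.14 (adjusted p = 0.000886). Cd69, an early activation marker of leukocytes, had 45.0, 47.6 and 54.2 CPM in KO libraries against 31.3, 33.8 and 31.3 CPM in WT libraries (0.60 ± 0.09). Max, the dimer partner of MYC, rose by 0.70 ± 0.09, Actb (beta actin) by 0.52 ± 0.07, Psap, the precursor of lysosomal saposins, by 0.49 ± 0.06, and Lmnb1 (lamin B1) by 0.39 ± 0.07, all without overlap.

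Of 20 transcription factors that HSCs depend on, 3 fell, by small amounts, and 0 rose. Without number 1, 2 and 3 in turn, 2, 0 and 4 of them fell. The median was -0.24, 18 were lower, and 8 were lower without overlap, against 5.61% of all rows. Hlf, a marker and regulator of HSCs, had 139.5, 125.4 and 99.2 CPM in KO libraries against 184.9, 188.0 and 152.0 CPM in WT libraries, and it fell by 0.54 ± 0.07 on the log2 scale (adjusted p = 0.0128). Mecom, which encodes the HSC regulator EVI1, had 78.8, 68.7 and 53.1 CPM in KO libraries against 106.3, 108.9 and 82.4 CPM in WT libraries, and it fell by 0.58 ± 0.07 (adjusted p = 0.015). Neither gene overlapped between the genotypes. Bcl11a, a repressor of fetal globin genes in human cells that is also needed for lymphoid development, had 118.0, 122.4 and 80.8 CPM in KO libraries against 166.7, 159.3 and 101.5 CPM in WT libraries. It fell by 0.40 ± 0.06, with WT library 3 below KO libraries 1 and 2. Hlf (adjusted p = 0.156), Mecom (adjusted p = 0.176) and Bcl11a (adjusted p = 0.238) did not pass without number 2, nor did Bcl11a without number 1 (adjusted p = 0.151). Meis1 (-0.33 ± 0.10), Runx1 (-0.35 ± 0.07) and Zfp521 (-0.66 ± 0.13) did not pass.

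**Figure D4:**
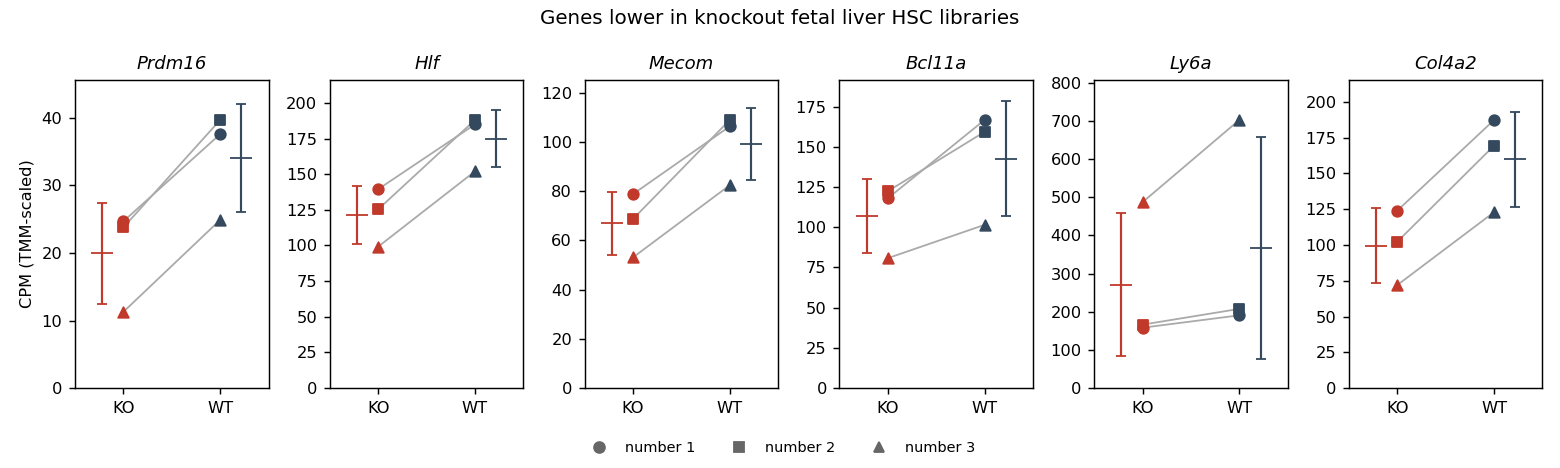
TMM-scaled CPM (vertical axes, starting at 0) of Prdm16, Hlf, Mecom, Bcl11a, Ly6a and Col4a2 in KO (red) and WT (dark blue) libraries, with grey lines joining libraries of the same number and bars at the sides for mean ± SD (n = 3). Every line ascends from KO to WT.

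Of 18 HSC surface and signature genes tested, Ly6a was the 1 that passed, and the median was -0.28 with 15 lower. Ly6a, which encodes the gate's Sca1, had 158.4, 166.4 and 487.3 CPM in KO libraries against 190.8, 207.7 and 702.6 CPM in WT libraries. Number 3 was the highest in each genotype, and within each number KO was the lower, by 0.37 ± 0.07 on the log2 scale (adjusted p = 0.0474). Cd48, the gene of the protein that the sort selects against, had 21.9, 21.8 and 32.5 CPM in KO libraries against 15.5, 12.8 and 17.6 CPM in WT libraries. Every KO library exceeded every WT library, and Cd48 rose by 0.72 ± 0.13 (adjusted p = 0.0474). Neither passed when any 1 number was left out (adjusted p = 0.0546 to 0.26 for Ly6a and 0.0605 to 0.292 for Cd48). Procr, which encodes the HSC marker EPCR, did not pass (-0.40 ± 0.12), nor did Esam (-0.56 ± 0.12) or Cd34 (0.10 ± 0.05). The part of these differences in the other results was not tested.

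Col4a1 and Col4a2, the paired genes of the type IV collagen of basement membranes, fell together. Col4a2 had 124.1, 102.4 and 72.1 CPM in KO libraries against 187.4, 169.5 and 123.0 CPM in WT libraries, and it fell by 0.70 ± 0.06 on the log2 scale (adjusted p = 0.00294). Col4a1 had 196.6, 149.9 and 112.6 CPM in KO libraries against 264.4, 264.5 and 181.7 CPM in WT libraries, and it fell by 0.65 ± 0.08. Without number 2 neither passed (adjusted p = 0.0548 for Col4a2 and 0.141 for Col4a1). WT library 3 lay below KO library 1 for both genes, while within each number KO was the lower. They are read from opposite strands of a shared promoter. The Col4a2 window is shown with capitals for the 78 bases that also lie in the Col4a1 window of RefSeq's table (GRCm38.p6), where the annotated starts are 21 bases apart.
Col4a2, chr8:11312555-11312854, plus strand: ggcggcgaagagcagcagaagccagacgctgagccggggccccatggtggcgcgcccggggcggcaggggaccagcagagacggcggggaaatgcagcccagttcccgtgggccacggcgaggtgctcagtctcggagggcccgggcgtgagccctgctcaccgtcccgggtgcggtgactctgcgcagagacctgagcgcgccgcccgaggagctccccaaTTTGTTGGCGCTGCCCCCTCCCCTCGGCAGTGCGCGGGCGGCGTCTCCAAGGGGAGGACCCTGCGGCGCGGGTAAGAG

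The rows that fell by the most, among those with a mean log2 CPM of at least 3, had varied roles. Gm-numbered, Rik, LOC and clone-like names were left out of this ranking. Only 9 rows of any kind passed as lower when number 2 was left out. Pcp4l1, a PCP4-like gene, had 3.76, 5.26 and 9.56 CPM in KO libraries against 10.7, 16.3 and 20.2 CPM in WT libraries, without overlap, and fell by 1.40 ± 0.17. Ndnf, which encodes a secreted factor, had 6.06, 6.91 and 4.28 CPM in KO libraries against 12.8, 14.7 and 9.12 CPM in WT libraries and fell by 1.09 ± 0.16. Itsn1, an endocytic scaffold gene, had 16.8, 18.3 and 14.3 CPM in KO libraries against 36.0, 29.1 and 35.1 CPM in WT libraries and fell by 1.02 ± 0.14. The kinase gene Pak3 (-1.06 ± 0.14), Setbp1 (-0.99 ± 0.17), which binds the oncoprotein SET, and Wfdc17 (-0.95 ± 0.10) followed. So did Bend3 (-0.91 ± 0.12), Mcf2l (-0.90 ± 0.15) and the ETS repressor gene Etv3 (-0.86 ± 0.13). Mdm4, an inhibitor of p53, had 23.5, 21.3 and 16.2 CPM in KO libraries against 43.1, 34.6 and 27.2 CPM in WT libraries and fell by 0.77 ± 0.10. The Wnt co-receptor gene Lrp6 (-0.50 ± 0.08), the lymphotoxin gene Ltb (-0.60 ± 0.10) and Tgfbi (-0.45 ± 0.07), a matrix gene induced by TGF-beta, fell as well.

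Some rows that fell share their reads. In the gamma protocadherin cluster, whose transcripts have common last exons, 14 of 22 rows fell, and all 22 lay between -0.75 and -0.52 on the log2 scale. Gvin1, a very large interferon-inducible GTPase gene, and 5 rows like it all fell, and lay between -1.17 and -0.83. Gvin1 had 181.0, 158.7 and 194.8 CPM in KO libraries against 317.0, 278.6 and 377.9 CPM in WT libraries, without overlap (-0.86 ± 0.06, adjusted p = 0.000648). These 20 rows are part of the 94 that fell and are not independent of each other. Gvin1 had 0 CPM in every library of the study's other HSC tables. Pcdhga3 of the protocadherin cluster had at most 0.875 CPM there, against 18.4 to 61.6 CPM here. How reads were counted for such rows thus differed or is uncertain, and the cause was not tested.

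Of 29 interferon response genes tested, 2 fell and 0 rose, with a median of -0.22 and 26 lower. Irf7, a transcription factor that amplifies interferon responses, had 3.55, 4.58 and 39.7 CPM in KO libraries against 6.85, 8.52 and 62.1 CPM in WT libraries, and it fell by 0.81 ± 0.13. Oas1a, an antiviral enzyme gene, fell by 0.49 ± 0.08, and Trim30a by 0.61 ± 0.10. The libraries numbered 3 had the highest levels of all 3 genes in each genotype. Neither Irf7 (adjusted p = 0.0863 to 0.204) nor Oas1a (adjusted p = 0.0957 to 0.222) passed when any 1 number was left out. Trim30a passed without number 3 (adjusted p = 0.0467) but not without number 1 (adjusted p = 0.0931) or number 2 (adjusted p = 0.26). Cd74, the invariant chain of MHC class II, had 48.5, 42.4 and 139.9 CPM in KO libraries against 73.3, 85.8 and 245.0 CPM in WT libraries and fell by 0.81 ± 0.09 (adjusted p = 0.00725), but it did not pass without number 2 (adjusted p = 0.0558). It was the 1 of 10 class II pathway genes to pass, and their median was 0.03.

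Megakaryocyte and red-cell genes moved in both directions. Of 20 megakaryocyte and platelet genes, 3 rose and 1 fell, but without number 2 no gene of this or the erythroid list passed. Ppbp, a platelet chemokine gene, had 39.2, 52.5 and 1.71 CPM in KO libraries against 18.6, 16.7 and 0.763 CPM in WT libraries, low in both libraries numbered 3, and rose by 1.33 ± 0.16. Gp1bb, part of the receptor for von Willebrand factor, rose by 1.82 ± 0.32 and Plek, the pleckstrin gene, by 0.52 ± 0.08, while Selp (P-selectin) fell by 0.66 ± 0.12. Of 23 erythroid genes, 2 rose and 3 fell. The Rhesus genes Rhag (1.05 ± 0.19) and Rhd (1.52 ± 0.26) rose. Car2, a carbonic anhydrase gene, had 238.1, 239.7 and 191.2 CPM in KO libraries against 329.5, 325.7 and 244.9 CPM in WT libraries and fell by 0.42 ± 0.06. The beta globin rows Hbb-b1 and Hbb-b2, which share their reads, both fell by 0.43 ± 0.07. Both had 0 CPM in every library of the study's other HSC tables. The erythroid factor genes Gata1 (0.84 ± 0.23) and Klf1 (1.57 ± 0.30) did not pass. Ccr9, a homing receptor of early lymphoid cells, rose by 1.45 ± 0.21, the 1 of 16 early lymphoid and B-cell genes to pass, but did not pass without number 2 (adjusted p = 0.227). Cxcl1, a neutrophil-attracting chemokine gene, had 10.3, 7.69 and 0.274 CPM in KO libraries against 1.41, 1.12 and 0.117 CPM in WT libraries, where the third pair held 8 and 4 counts. It rose by 2.61 ± 0.35, the 1 of 36 inflammation genes, but did not pass without number 1 (adjusted p = 0.143) or number 2 (adjusted p = 0.22). Nkg7, a cytotoxic granule gene that is also in the primary granule list, rose by 1.62 ± 0.20, and it was the 1 of 12 T and NK cell genes, but did not pass without number 2 (adjusted p = 0.159). The T-cell gene Cd3e had 12, 0 and 1 counts in KO libraries and 0 in each WT library.

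No gene passed in the lists for growth, energy and stress. Without the libraries numbered 3, calls appeared in some of these lists: 1 proliferation gene, 2 immediate early and stress genes and 1 hepatocyte gene rose, and 1 G1 cyclin or CDK gene and 2 TGF-beta and BMP genes fell. The 38 proliferation genes had a median of 0.18, and 37 of them were higher in KO. Bub1b, a mitotic checkpoint kinase gene, had 198.1, 169.5 and 130.5 CPM in KO libraries against 155.3, 144.3 and 111.8 CPM in WT libraries, overlapping between genotypes (0.27 ± 0.06, adjusted p = 0.0992). The 51 ribosomal protein genes had a median of 0.11, the 49 oxidative phosphorylation genes 0.08, the 23 glycolysis genes 0.16 and the 42 replication histone genes 0.21. The 22 p53 targets had a median of 0.08, and Gadd45a among them was at 1.07 ± 0.23 (adjusted p = 0.0903). The 24 TGF-beta and BMP genes had a median of -0.06, and the co-receptor gene Tgfbr3 was at -0.76 ± 0.13 (adjusted p = 0.0738), and passed without number 1 (adjusted p = 0.0199) and without number 3 (adjusted p = 0.00978). The 24 hepatocyte genes had a median of -0.23, the 15 endothelial genes -0.26, the 8 brown fat programme genes -0.16 and the 13 genes of proteins known to bind PRDM16 0.06. Cdkn1c, a cell-cycle inhibitor gene of resting HSCs, was at -0.37 ± 0.10 (adjusted p = 0.139).

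**Figure D5:**
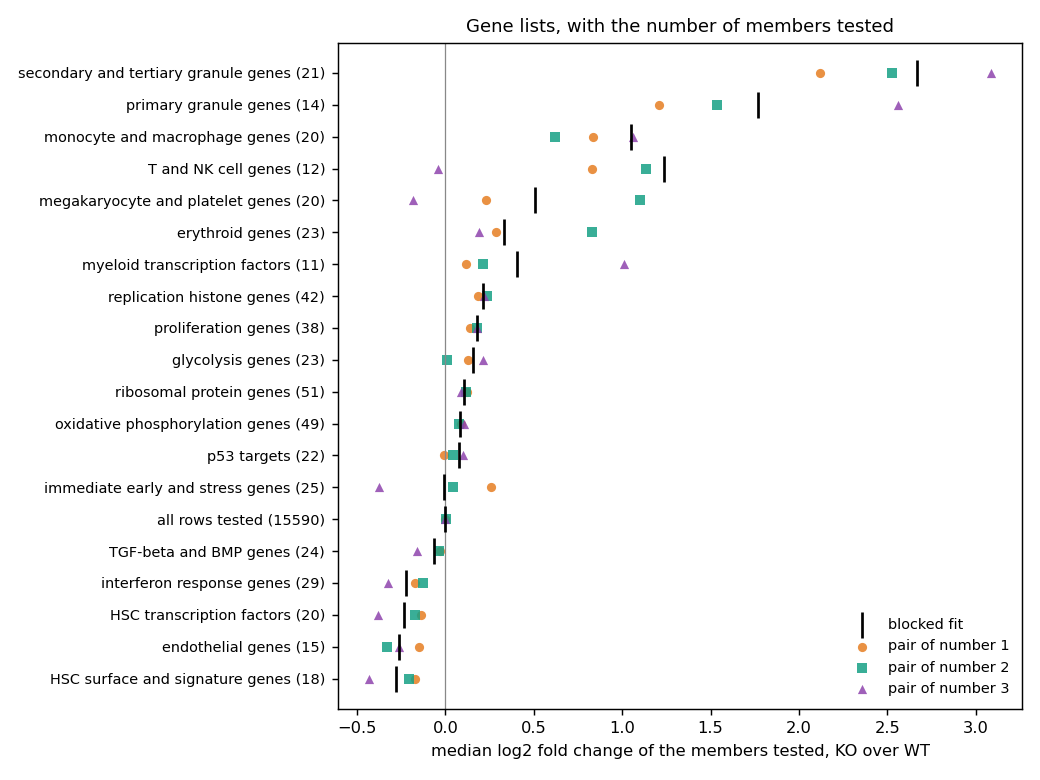
Median log2 fold change, KO over WT (horizontal axis), of the tested members of 19 gene lists and of all rows, with the number tested in brackets. Black ticks are medians of the blocked fit and coloured points are medians of log2 ratios of CPM with 0.5 added, for each pair of same-numbered libraries; both granule lists stand farthest to the right in all 3 pairs.

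The table's make-up differed from that of the study's other count tables. Rows with Gm-numbered names held 9.54% ± 0.289 of counts in KO libraries and 10.1% ± 0.179 in WT libraries (SD, n = 3 each), and at most 0.386% in any library of the other tables. The difference of -0.556 percentage points had an exact permutation p of 0.1, two-sided, which is the smallest that 3 against 3 allows. Cdkn2d, the gene of the CDK inhibitor p19INK4d, held 5.60% ± 0.119 in KO libraries and 5.46% ± 0.091 in WT libraries (exact permutation p = 0.2), and at most 0.0011% elsewhere. With rows of few counts set aside, rows with counts identical to another row's held 4.49% to 4.96% here and 0% in the other tables. Identical rows with any counts were found in each, 1715 here and 2041 to 3199 in the other tables. Cdkn2d was at 0.08 ± 0.04 on the log2 scale (adjusted p = 0.441). Leaving out the Gm-numbered rows and Cdkn2d left 167 rows called with the block, all among the 176.

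Sex-linked transcripts differed between the libraries. Xist was counted in all 6 libraries (37.4, 85.6 and 99.5 CPM in KO libraries, 73.3, 98.7 and 82.5 CPM in WT libraries). Eif2s3y, on the Y chromosome, had 31.8, 10.2 and 17.5 CPM in KO libraries, against 0, 0 and 30.6 CPM in WT libraries. Uty, another Y-linked gene, had 28.6, 11.6 and 15.2 CPM in KO libraries against 3.63, 3.14 and 26.9 CPM in WT libraries. Both genes were thus lowest in WT libraries 1 and 2, where Eif2s3y was at 0 and Uty was not. Within numbers 1 and 2 both genes were higher in KO, and within number 3 both were lower. Fits without number 3 rest on numbers 1 and 2, where a difference in sex and one in genotype cannot be told apart. The blocked fit without number 3 called 3 sex-linked genes higher in KO and 0 lower. The part of sex in the results was not tested.

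The same changes were set beside 2 other HSC comparisons of the study, each with its own WT libraries and its own table. In fetal liver HSCs that keep short PRDM16 only (3 KO and 3 WT libraries), edgeR called 0 of 13631 rows with the block (1716 with an unadjusted p under 0.05) and 0 without it (357). Blocked log2 fold changes there were -1.39 for Prdm16, 1.54 for Mpo, 1.57 for S100a9, -0.79 for Hlf, -1.02 for Mecom, -1.18 for Col4a2 and -2.05 for Ndnf, with adjusted p of 0.101 to 0.55. The primary granule list had a blocked median of 1.43 with 14 of 14 tested members higher in KO. The secondary and tertiary list had 1.52 with 19 of 19 higher, and the HSC surface and signature list -0.87 with 0 of 18 higher. The pairs were uneven, with an SE of 0.73 for Mpo and 0.93 for S100a9. Mpo had 5603.3, 12939.5 and 25583.1 CPM in KO libraries against 5051.0, 1520.3 and 9505.5 CPM in WT libraries. S100a9 had 264.6, 3553.3 and 4722.4 CPM against 242.2, 277.0 and 2222.4 CPM. For both genes the KO and WT libraries numbered 1 were thus close. The difference between the fetal comparisons, total KO minus short-form-only KO, was 1.19 ± 0.80 for Mpo, 0.27 ± 0.13 for Hlf, 0.46 ± 0.13 for Mecom and 0.50 ± 0.13 for Col4a2 (SE). The test of that difference in edgeR called 0 of 15777 rows with the block (980 with an unadjusted p under 0.05) and 0 without it (335), and DESeq2 called 0.

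In adult marrow HSCs with the same KO label (4 KO and 4 WT libraries), edgeR also called 0 of 13495 rows with the block (1155 with an unadjusted p under 0.05) and 0 without it (1141). Mpo was at -0.50, S100a9 at 0.58 ± 1.36, Ngp at 1.18 ± 1.52, Hlf at 0.18, Mecom at 0.49, Col4a2 at 0.15 and Prdm16 itself at 0.06, the last with 41.3, 25.2, 40.4 and 13.4 CPM in KO libraries and 51.9, 22.5, 37.8 and 10.8 CPM in WT libraries. There the primary granule list had a blocked median of -0.36 with 2 of 13 tested members higher in KO, and the secondary and tertiary list 1.25 with 11 of 14 higher. Levels were low and uneven. Ngp had 1.19, 47.8, 65.0 and 355.0 CPM in KO libraries against 2.71, 16.5, 91.7 and 5.66 CPM in WT libraries. It was thus higher in KO within numbers 2 and 4 and lower within numbers 1 and 3. The fetal effect minus the adult effect was 3.19 ± 0.67 for Mpo (adjusted p = 0.24), 2.31 ± 1.24 for S100a9 (adjusted p = 0.55), 1.94 ± 1.39 for Ngp (adjusted p = 0.664), -0.75 ± 0.25 for Hlf (adjusted p = 0.362) and -1.10 ± 0.35 for Mecom (adjusted p = 0.339). The test of that difference in edgeR called 1 of 15949 rows (0.00627%), Slc5a3, without the block, and 0 with it (1720 with an unadjusted p under 0.05), while DESeq2 called 36 without a block.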

How the data were processed

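Bulk RNA-seq of sorted fetal liver HSCs was analysed in 3 KO and 3 WT libraries. Poly-A RNA was amplified with a Clontech SMARTer low-input kit and made into Illumina TruSeq libraries, per the labels' protocols. The deposited values are whole-number read counts per gene. The submitters' processing notes name bcl2fastq 2.17, TopHat, DESeq and the mouse build mm9; the counting tool, annotation and use of strand are not given in the sources used here, so reads of overlapping or antisense genes cannot be told apart. Amplified reads carry no molecular identifiers that the sources mention, so counts include copies of one molecule. The labels do not say that libraries of a group came from separate embryos or litters, so the spread behind each p-value may be partly technical.

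Counts were analysed in R 4.3.3 with edgeR 4.0.16 (filterByExpr, TMM, robust quasi-likelihood test, Benjamini-Hochberg adjusted p under 0.05), with and without the library number as block, and with DESeq2 1.42.0 as an alternative. Pair ratios added 0.5 CPM. The fit was also run on counts simulated from the blocked fit itself, which cannot show whether pairing by number is right. Deviations from the group means correlated at 0.415, 0.202 and 0.626 between same-numbered KO and WT libraries, and at -0.52 to 0.338 between differently numbered ones. Deviations within a group cancel out, so libraries numbered 3 that stand apart also draw numbers 1 and 2 together. The labels say nothing of what a number marks. KO library 2 correlated more with WT library 1 (0.319) than with WT library 2. No libraries were duplicates (lowest chi-square per degree of freedom 12.2 over 15 pairs). Count shares were compared by exact permutation, where 3 against 3 allows no p below 0.1. There were 0 columns of no sample.

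The comparison, its 37 gene lists (818 entries) and the tests were chosen with earlier results of these data known. Genes were named by a rule: Prdm16; in each direction up to 12 genes with the largest blocked log2 change, a mean log2 CPM of at least 3 and the same direction in all 3 pairs; up to 4 passing or else 2 other members of each list; the gate genes; and the 5 rows with the most counts. Genes outside it, among them Col4a1, Col4a2, Elane, Ltf, Lyz2, S100a8, Mmp9, Cd177, Olfm4, Retnlg, Cybb, Cxcr2, Ccr1, Ltb4r1, Rgs1, Cd69, Max, Actb, Psap, Lmnb1, Mdm4, Lrp6, Ltb, Tgfbi, Trim30a, Rhag, Meis1, Runx1, Zfp521, Procr, Cebpa, Irf8, Gata1, Klf1, Xist and the hepatocyte markers, were chosen after their values were seen. The ranking by direction left out sex-linked genes and Gm-numbered, Rik, LOC and clone-like names. Alternatives covered scaling, low-count filters, DESeq2, left-out libraries and numbers, left-out Gm-numbered rows with Cdkn2d, collapsed identical rows and a non-robust fit.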

Additional observations from a re-analysis of the deposited data

Results flagged for a closer look

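Slc5a3, which encodes a myo-inositol transporter, was picked out because its KO effect differed between fetal liver and adult marrow HSCs in a test of the difference itself. In fetal liver it had 13.8, 17.8 and 12.6 CPM in KO libraries against 26.6, 21.9 and 20.9 CPM in WT libraries. In adult marrow it had 22.9, 20.9, 21.4 and 17.7 CPM in KO libraries against 6.88, 8.01, 9.15 and 6.58 CPM in WT libraries. It was thus lower in every fetal KO library and higher in every adult KO library than in any WT library of the same table. Neither change passed by itself in edgeR. The adjusted p was 0.964 in fetal liver and 0.283 in adult marrow without the block, and 0.109 and 0.428 with it. The fetal minus the adult log2 fold change was -2.11 ± 0.28 (SE, adjusted p = 0.0373 in edgeR without the block). With the block the difference was -2.13 (adjusted p = 0.202). Leaving out any 1 fetal library gave -2.26 to -2.00 with adjusted p of 0.0616 to 0.288. The tables were normalised separately, so levels are comparable only within each.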

How the results depend on the processing

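Both the replicate block and the tool changed the number of calls: edgeR called 0 rows without the block and 176 with it. The pairing by number rests on the libraries' correlations alone, which did not match KO library 2 to WT library 2. With the block, calls numbered 167 without the Gm-numbered rows and Cdkn2d, 165 with RLE size factors, 173 with identical rows collapsed, 219 with no filter, 180 with a filter of 1 CPM in 3 libraries and 130 with the non-robust fit. They numbered 138, 51 and 320 without number 1, 2 and 3. DESeq2 called 71 rows without and 542 with the block. Without the block, leaving out both libraries numbered 3 gave 40, and the 6 fits that left out 1 library each gave 0 calls. The blocked fits with collapsed rows, no filter, the 1 CPM filter and the non-robust test, and the fit that gave 40, were chosen after seeing the data.

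Prdm16 was between -0.96 and -0.49 in all settings. It passed in fits with the block only: in edgeR at -0.82 (adjusted p = 0.0302) and in DESeq2 at -0.82 (5.6e-05). Blocked edgeR fits also passed it without Gm-numbered rows and Cdkn2d at -0.82 (0.0319), with RLE at -0.81 (0.0316) and with collapsed rows at -0.82 (0.0311). The same held, with the block, for no filter at -0.82 (0.0163), 1 CPM at -0.82 (0.0292), the non-robust fit at -0.82 (0.0472) and without number 3 at -0.67 (0.0119). Without the block Prdm16 passed in no setting. Its lowest adjusted p there was 0.0642, in edgeR without the libraries numbered 3, and DESeq2 gave 0.624. It did not pass with the block without number 1 (-0.94, 0.053) or number 2 (-0.87, 0.227).

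Of 2613 pairs of a named gene and a setting, 2602 kept their direction. With no block, the fits that left out 1 library ranged between -1.13 and 10.75 for Chi3l4, -0.92 and 9.17 for Chi3l3, -0.96 and 7.41 for Ctsg, -0.052 and 5.55 for Mpo, -0.98 and 6.26 for Ms4a3, and -1.23 and 8.52 for Elane, all lowest without KO library 3 and highest without WT library 3. They ranged between -2.67 and 1.05 for Irf7, -1.18 and 0.44 for Ly6a, -1.75 and 0.77 for Oas1a, -1.46 and 0.23 for Trim30a, and -0.0089 and 0.93 for Plek, at the same 2 settings. There 1 genotype kept its library 3 and the other did not. The fetal minus adult test called 1 row without the block, 0 with it, 36 with DESeq2 and 0 on leaving out any 1 fetal library; the cause was not tested. List medians moved beyond the replicate spread in 123 of 925 cases, with the primary granule median between 0.01 and 3.20 and the interferon median between -1.66 and 0.70. Depth limits genes with few counts in WT libraries, such as Prg2.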
